A study of Mus musculus with 21 samples.

Results

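The genes described here are those that encode the chains of collagens, taken as every gene on the array whose symbol has the form Col, a number, the letter a and a number. There were 42 such genes among 18193 named genes, each read from the probe set with the highest mean log2 signal, and 37 of them lay above background in at least 1 group. Expression was measured on 21 arrays from mouse cells sorted for green fluorescence at E16.5 from kidneys carrying the BAC transgene Six2GFPcre, so that every group, controls included, carried this transgene on a mixed background. There were 7 groups of 3 samples: freshly sorted cells, cells kept dispersed for 24 h with DMSO or with 4 µM BIO, aggregates made by centrifugation and kept for 24 h with DMSO or with BIO, aggregates given BIO for 24 h and DMSO for the next 24 h, and aggregates given BIO for 48 h. BIO inhibits the kinase GSK3 and thereby activates Wnt/β-catenin signalling, and DMSO is its solvent. Each sample held 40000 cells and the medium held 10% serum. The labels call the samples biological replicates and do not say which shared a litter or a sort.

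Collagens are secreted as triple helices of 3 chains. Fibrillar collagens build the cables of connective tissue, collagen IV builds the sheet of the basement membrane, collagen VI forms beaded filaments, and the fibril-associated collagens, known as FACIT, sit on the surface of fibrils. In the embryonic kidney fibrillar chains are best known from the interstitial stroma, while nephron progenitors and the epithelia that form from them lie against collagen IV and the heparan sulphate collagen encoded by Col18a1.

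Promoter sequence is shown for some of the members with large changes that have a RefSeq entry and for 1 divergent gene pair, so that the letters upstream of members that moved in opposite directions can be read side by side. Others with an entry, such as Col1a2, Col5a1 and Col4a4, are not shown. The RefSeq table of GRCm38.p6 held a start site for 33 of the 42 genes, in 36 windows, and the 250 bases before each start were searched on both strands. Capitals mark a match on either strand to the TCF/LEF letters, which are CAAAG preceded by a pair of letters that are each A or T, or to the TEAD letters GGAATG. Each sequence runs 5′ to 3′ towards its start site.
Col3a1, chr1:45311288-45311537, plus strand: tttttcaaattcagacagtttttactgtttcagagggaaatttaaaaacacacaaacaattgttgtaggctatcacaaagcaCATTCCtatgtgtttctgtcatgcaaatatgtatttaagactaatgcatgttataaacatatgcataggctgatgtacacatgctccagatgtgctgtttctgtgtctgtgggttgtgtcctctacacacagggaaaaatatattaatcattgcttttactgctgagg
Col8a1, chr16:57754738-57754987, minus strand: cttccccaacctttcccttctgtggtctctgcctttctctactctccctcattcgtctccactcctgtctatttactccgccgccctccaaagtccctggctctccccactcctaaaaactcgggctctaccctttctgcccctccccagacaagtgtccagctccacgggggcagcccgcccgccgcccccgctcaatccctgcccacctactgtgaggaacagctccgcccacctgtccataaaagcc
Col13a1, chr10:61979109-61979358, minus strand: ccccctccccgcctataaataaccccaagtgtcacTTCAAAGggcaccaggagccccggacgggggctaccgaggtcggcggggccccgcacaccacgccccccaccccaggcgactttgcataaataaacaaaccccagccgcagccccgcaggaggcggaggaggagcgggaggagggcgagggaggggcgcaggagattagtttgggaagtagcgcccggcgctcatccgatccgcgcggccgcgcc
Col18a1, chr10:77113706-77113955, minus strand: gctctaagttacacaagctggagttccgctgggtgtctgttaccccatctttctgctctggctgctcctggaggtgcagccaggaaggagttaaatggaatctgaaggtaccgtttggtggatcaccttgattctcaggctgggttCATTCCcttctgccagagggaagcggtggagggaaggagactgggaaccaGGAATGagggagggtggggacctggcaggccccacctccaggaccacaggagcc
Col4a6, chrX:141474077-141474326, minus strand: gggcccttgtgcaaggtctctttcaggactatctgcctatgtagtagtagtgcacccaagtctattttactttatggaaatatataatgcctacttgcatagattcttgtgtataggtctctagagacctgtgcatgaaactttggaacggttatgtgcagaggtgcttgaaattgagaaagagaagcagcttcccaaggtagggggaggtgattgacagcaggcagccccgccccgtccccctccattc
Col4a5, chrX:141475169-141475418, plus strand: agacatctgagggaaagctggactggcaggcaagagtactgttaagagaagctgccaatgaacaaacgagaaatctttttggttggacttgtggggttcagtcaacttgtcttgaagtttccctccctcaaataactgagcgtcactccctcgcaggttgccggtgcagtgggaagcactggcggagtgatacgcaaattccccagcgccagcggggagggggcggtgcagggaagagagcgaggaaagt
TCF/LEF letters stood in 6 of the 36 collagen windows (16.7%) and in 14.8% of all 32851 windows of the same length, and TEAD letters in 4 (11.1%) against 12.6%. The CCAAT letters were in 36.1% of collagen windows against 33.8% of all, the AP-1 letters TGANTCA in 2.78% against 6.75%, and the CArG box, the motif bound by serum response factor, in 2.78% against 1.47%. The SP/KLF letters GGGCGG were in 21 collagen windows (58.3%) against 32.7% of all. Among the sequences shown, the TCF/LEF letters lay 215 bases before the start of Col13a1, and TEAD letters lay 168 bases before that of Col3a1 and 104 and 54 bases before this start of Col18a1. The window of the other Col18a1 start, not shown, held neither TEAD nor TCF/LEF letters. A match is a description of the letters and not of a bound factor. Of the collagen IV genes, Col4a6 and Col4a5 start 1343 bases apart on opposite strands of chromosome X, head to head, and Col4a1 and Col4a2 start 21 bases apart on opposite strands of chromosome 8.

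Array signals are linear intensities, quantile normalized here, and changes are differences of log2(signal + 1). Tests are limma's moderated test over all 21 arrays with Benjamini-Hochberg adjustment over all 18193 genes, with calls at an adjusted p under 0.05. Background was set at a signal of 41.8, below which 95% of the single values of the 27 bacterial control probe sets on all 21 arrays lay. A fold against a group below it is given as a lower bound. Six2, which drives the transgene, read 8565 to 9270 in fresh cells. The 12 measured genes of a nephron progenitor list summed to 44679 to 46193 there and to 9924 to 21571 in the cultured groups. At 24 h the sums in aggregates were 14544 to 15957 in DMSO and 21107.5 to 21571 in BIO. In dispersed cells they were 13787 to 14596 in DMSO and 14526 to 15004 in BIO. Mean Six2 signals were 4683 in DMSO and 1795 in BIO in aggregates, and 4764 and 1542 in dispersed cells. Of the endothelial markers 7 to 8 of 10 were above background in each group, Kdr among them at 131 to 251, and Tie1 was below it in every group. Of the leukocyte markers 5 to 7 of 8 were above it, the macrophage gene Csf1r among them at 154 to 899, and Aif1 was below it in every group. The marker sums were 820 to 1946 for endothelium, 653 to 1976 for leukocytes and 537 to 978 for ureteric bud. The 3′ β-actin control ranged from 2895 to 12736, lowest in aggregates after 24 h in BIO (2895 to 5479), and the Gapdh 3′ to 5′ ratio from 6.34 to 15.3; 1 array each of the fresh, DMSO aggregate, 24 h BIO aggregate and 48 h BIO groups stood apart from its group in β-actin. The medians of the deposited values were lower in aggregates after 24 h (87.2 to 97.8) than in fresh and dispersed cells (at least 102).

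Of the 42 genes 5 were below background in all 7 groups, Col6a4, Col6a5, Col9a2, Col10a1 and Col17a1, and no fold is given for them. At the other end 26 members were above background on all 21 arrays. Members that rose in DMSO culture included Col12a1, Col8a1, Col5a2 and Col5a1, and members that fell there included Col26a1, Col4a6, Col13a1 and Col1a2.

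**Figure D1:**
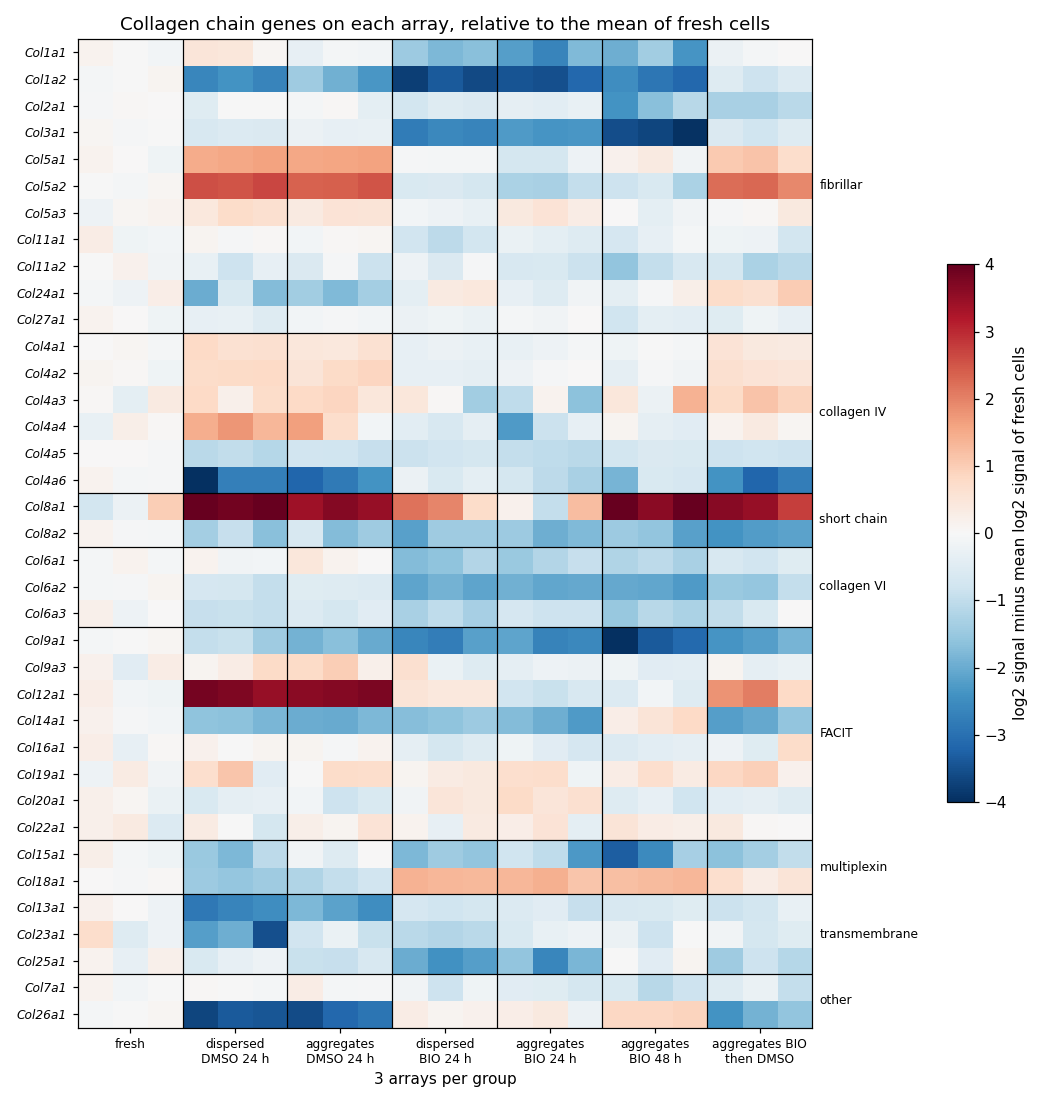
Heat map of 37 collagen genes (rows, grouped by structural class) on 21 arrays (columns, 3 per group), coloured by log2 signal minus the mean log2 signal of fresh cells. Col12a1 and Col5a2 are red in both DMSO groups and pale or blue in the BIO groups at 24 h, and Col26a1 is blue in both DMSO groups.

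Culture in DMSO was first set against fresh cells. In aggregates 8 of the 42 genes were higher than in fresh cells and 14 lower (52.4%, where 32.9% of all genes were called, 18.4% higher and 14.5% lower), and in dispersed cells 8 were higher and 16 lower (57.1% against 33.2% of all genes, 15% higher and 18.3% lower). Treatment was read against DMSO. Against DMSO at 24 h, 6 were higher and 17 lower in aggregates (54.8% against 30% of all genes, 17.5% higher and 12.5% lower), and 8 were higher and 16 lower in dispersed cells (57.1% against 28.7% of all genes, 15.3% higher and 13.4% lower). In these 4 comparisons the arrays of the groups did not overlap for any called member. Overlap was not counted over all called genes, so this is not read as particular to collagens. The median change with BIO was -0.43 in aggregates and -0.40 in dispersed cells on the log2 scale, where the medians of all genes were 0.09 and 0.02. The DMSO groups serve as the control of the BIO comparisons and as the test group of the culture comparisons, so these comparisons share arrays. In aggregates the β-actin control also moved with BIO, at 2895 to 5479 against 7582 to 12514 in DMSO, and with it as a covariate 15 members were called in place of 23; its part in the result was not tested.

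The BIO responses in aggregates and in dispersed cells rest on separate arrays. All 6 genes higher in aggregates were also higher in dispersed cells, where they made up 75% of the 8, although with the mean of its probe sets Col20a1, 1 of the 6, missed the threshold in aggregates (0.34) and changed by -0.04 in dispersed cells. Of the 17 lower in aggregates, 13 (76.5%) were also lower in dispersed cells, where they made up 81.2% of the 16, and no gene was called in opposite directions. The same shares were not counted over all genes, so this overlap is not read as particular to collagens. A test of the difference between the BIO effects called 1 member, Col4a5 (2.38%, where 1.57% of all genes were called, 0.726% higher and 0.841% lower), described with the collagen IV chains.

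**Figure D2:**
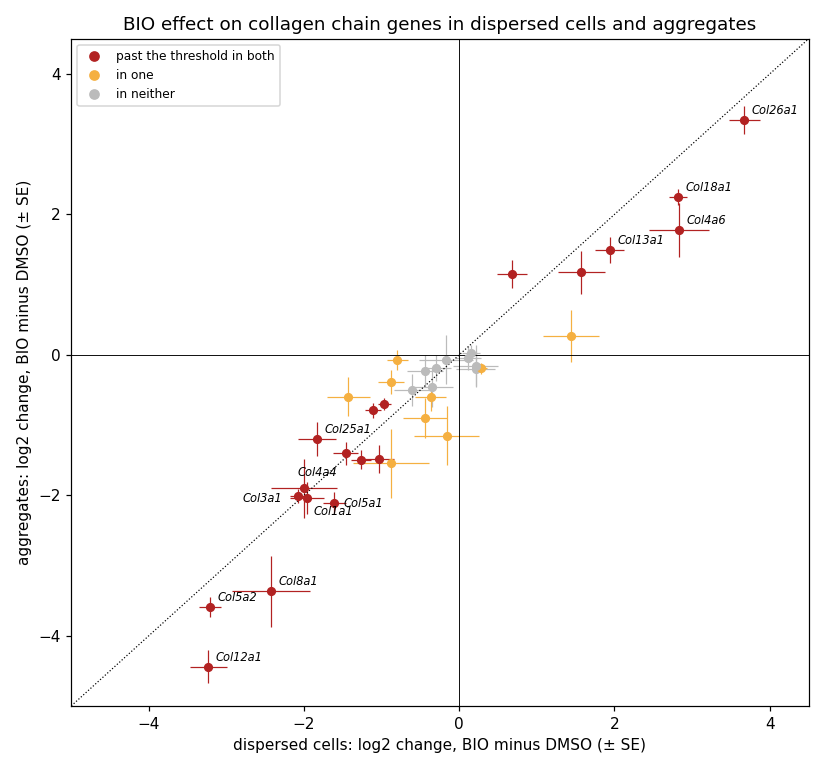
Log2 change with BIO at 24 h in dispersed cells (x axis) and in aggregates (y axis) for 37 collagen genes, with standard errors as bars and a dotted line of equal change. Col26a1, Col18a1, Col4a6 and Col13a1 lie at the upper right and Col12a1, Col5a2 and Col8a1 at the lower left.

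Markers of interstitial stroma were measured beside the fibrillar chains. Of 14 listed stroma markers 13 were measured, none was at 0, and Ntn1 was below background in the 48 h BIO group alone. Their summed signal was 12084 to 13174 in fresh cells, 21566 to 21667 in dispersed cells in DMSO, 20668 to 22840.0 in aggregates in DMSO, 6853 to 7072 in dispersed cells in BIO and 6092 to 6505 in aggregates in BIO. It was 17801 to 18973 in aggregates after BIO then DMSO and 5072 to 5842 after 48 h in BIO. Acta2 weighs heavily in these sums, with means of 2691 in fresh cells and 11649 and 11099 in dispersed cells and aggregates in DMSO. Against fresh cells the list was mixed. In aggregates in DMSO 4 were higher and 4 lower, where 18.4% of all genes were higher and 14.5% lower. In dispersed cells in DMSO 4 were higher and 5 lower, where 15% were higher and 18.3% lower. With BIO 9 of the 13 were lower and 1 higher in aggregates, where 12.5% of all genes were lower, and 8 were lower and 1 higher in dispersed cells, where 13.4% were lower. After BIO withdrawal 10 were higher than with BIO kept, where 9.29% of all genes were higher, and none was lower. Podocyte markers, 6 of 8 measured, summed to 2281 to 3326 in fresh cells, 3083 to 4065 in DMSO at 24 h, 438 to 696 in BIO at 24 h, 3277 to 3475 after withdrawal and 508 to 715 after 48 h in BIO, with Ptpro below background in dispersed cells in BIO and Synpo and Clic5 after 48 h in BIO. Leukocyte markers, all 8 measured, summed to 1372 to 1756 in fresh cells. In dispersed cells they summed to 1504 to 1892 in DMSO and 653 to 860.3 in BIO, where 3 were called lower and none higher, and in aggregates to 1651 to 1976 in DMSO and 977 to 1525 in BIO, where 1 was called in each direction. They summed to 962 to 1551 after withdrawal and 740 to 905 after 48 h in BIO, where 2 were higher after withdrawal and none lower. The leukocyte markers called were 37.5% in dispersed cells, 25% in aggregates and 25% for withdrawal. These shares are near the 28.7%, 30% and 20.4% of all genes called there in either direction. In dispersed cells the 37.5% were all lower, where 13.4% of all genes were lower. For withdrawal the 25% were all higher, where 9.29% of all genes were higher, in a list of 8 genes. In RNA from whole samples fewer cells of a type and less RNA per cell cannot be told apart, and the part of these cells in the collagen results was not tested.

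Of the 11 fibrillar chain genes, 3 rose and 3 fell in aggregates in DMSO (54.5%, where 32.9% of all genes were called) and 3 rose and 4 fell in dispersed cells (63.6% against 33.2%). BIO lowered 5 and raised 1 in aggregates (54.5% against 30% of all genes), and lowered 7 and raised 1 in dispersed cells (72.7% against 28.7%). Their median change with BIO was -0.39 in aggregates and -0.88 in dispersed cells.

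Col1a1 encodes a chain of type I collagen, the main fibril of connective tissue. Its signals were 1378, 1243 and 1168 in fresh cells, 1749.8, 1712 and 1338 in dispersed cells in DMSO and 1004, 1206 and 1162 in aggregates in DMSO. With BIO they were 463, 365 and 397 in dispersed cells, 275, 199.5 and 367 in aggregates and 324, 479 and 247 after 48 h. All 9 BIO arrays lay below all fresh and DMSO arrays. Col1a1 was 4.11-fold lower with BIO in aggregates (log2 change -2.04 ± 0.22 SE, adjusted p = 2.98e-06) and 3.9-fold lower in dispersed cells (-1.96 ± 0.22, adjusted p = 4.19e-06). Culture in DMSO did not bring it past the threshold (log2 change -0.17 ± 0.22 in aggregates, adjusted p = 0.609, and 0.33 ± 0.22 in dispersed cells, adjusted p = 0.293).

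Col1a2 encodes the partner chain in type I collagen. Its signals were 3793, 3949 and 4292 in fresh cells, then 662, 764 and 636 in dispersed cells in DMSO and 1500.2, 1056 and 805 in aggregates in DMSO. BIO left 292, 388 and 326 in dispersed cells, 364, 352 and 454 in aggregates and 713, 539 and 453 after 48 h. It was already below the fresh level in DMSO, 5.84-fold lower in dispersed cells (adjusted p = 6.14e-08) and 3.69-fold lower in aggregates (adjusted p = 2.23e-06). BIO took it a further 2.05-fold down in dispersed cells (-1.04 ± 0.20, adjusted p = 0.000892) and 2.79-fold in aggregates (-1.48 ± 0.20, adjusted p = 3.13e-05). With β-actin as a covariate the aggregate change was -0.61 and missed the threshold.

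Col3a1, which encodes the single chain of type III collagen, read 6681, 6014 and 6151 in fresh cells, 4031, 4260.2 and 4201 in dispersed cells in DMSO and 5356, 4954 and 5067 in aggregates in DMSO. With BIO the signals were 907, 1049 and 1005 in dispersed cells, 1312, 1233 and 1254 in aggregates and 532, 489 and 403 after 48 h. The 9 BIO arrays again lay below all others. Col3a1 was 4.22-fold lower with BIO in dispersed cells (-2.08 ± 0.10, adjusted p = 2.18e-10) and 4.04-fold lower in aggregates (-2.02 ± 0.10, adjusted p = 4.02e-10). Its fall from the fresh level in DMSO was smaller, -0.59 ± 0.10 in dispersed cells (adjusted p = 0.000225) and -0.29 ± 0.10 in aggregates (adjusted p = 0.0353). The aggregate value lost its call without fresh replicate 1 (-0.25) or 3 (-0.31) or DMSO aggregate replicate 2 (-0.27) or 3 (-0.28), and under the deposited scaling (-0.20) or median centring (-0.05).

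Col5a1 and Col5a2, chains of type V collagen, which join type I chains in the core of thin fibrils, rose in culture and were lower with BIO. Col5a2 read 1053, 1011 and 1107 in fresh cells, 6248, 6110.0 and 6687 in dispersed cells in DMSO and 5373, 5584 and 6037 in aggregates in DMSO. With BIO it read 688, 710.0 and 647 in dispersed cells and 435, 431 and 544 in aggregates, below every fresh array. That made it 6.0-fold higher than fresh in dispersed cells in DMSO (adjusted p = 8.41e-10) and 5.35-fold higher in aggregates (adjusted p = 2.27e-09). Against DMSO, BIO lowered it 12.1-fold in aggregates (-3.59 ± 0.14, adjusted p = 3.52e-11) and 9.3-fold in dispersed cells (-3.22 ± 0.14, adjusted p = 8.91e-11). Col5a1 read 984 to 1219 in fresh cells and 3108 to 3341 in DMSO. With BIO it read 1041 to 1071 in dispersed cells and 674 to 962 in aggregates. The change with BIO was -2.11 ± 0.15 in aggregates (adjusted p = 2.44e-08) and -1.61 ± 0.15 in dispersed cells (adjusted p = 4.78e-07). Col5a3, a dimmer type V chain, read 104 to 133 in fresh cells and 153 to 198 in DMSO, and BIO lowered it in dispersed cells (-0.80 ± 0.14, adjusted p = 0.000295) but in aggregates it changed by -0.07 ± 0.14 (adjusted p = 0.745). The other Col5a3 probe set, in a fit of all probe sets, was called with BIO in aggregates. It was also called for the difference of the BIO effects, so this contrast between formats depends on the probe set. The rise of Col5a3 over fresh in DMSO rests on 1 probe set, since the mean of its probe sets gave -0.49 in aggregates and -0.15 in dispersed cells.

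**Figure D3:**
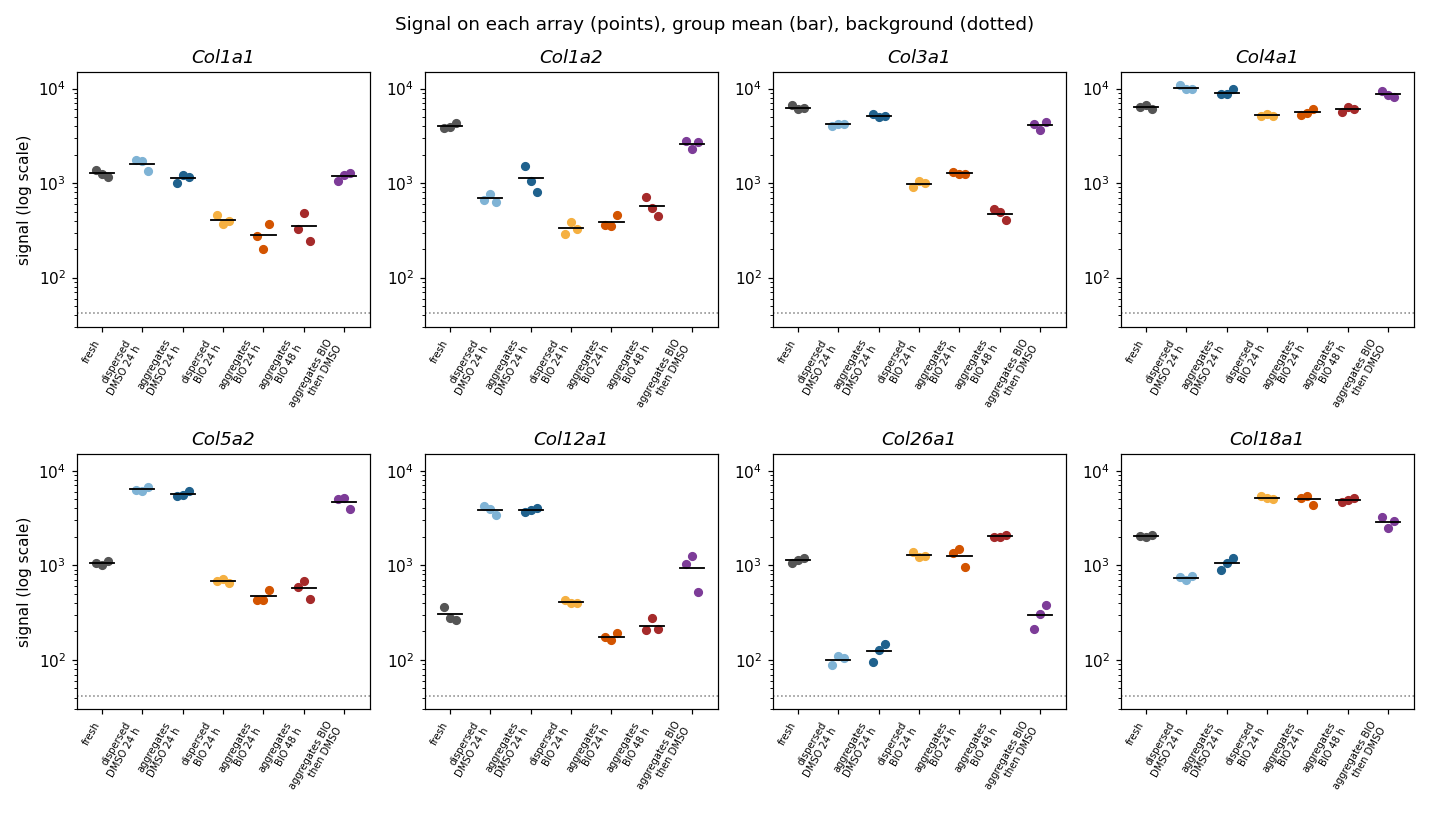
Signal of 8 collagen genes on each array (points, log axis) in 7 groups of 3, with the group mean as a bar and the background of 41.8 as a dotted line. Col1a1, Col1a2, Col3a1 and Col5a2 are low in the BIO groups and high again after BIO withdrawal, while Col26a1 and Col18a1 are low in DMSO and high in BIO.

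Col24a1, a minor fibrillar chain, went the other way at low levels. It read 53.0, 49.3 and 68.8 in fresh cells, 13.5 to 37.0 in DMSO, all below background, and 38.8 to 76.7 in BIO. The rise with BIO was at least 1.47-fold in dispersed cells (1.57 ± 0.30, adjusted p = 0.000795) and at least 1.07-fold in aggregates (1.17 ± 0.30, adjusted p = 0.0071). The aggregate call was lost without the 4 arrays that stood apart in β-actin (1.16) and with β-actin as a covariate (1.02). After withdrawal of BIO it read 88.0 to 116, above all 18 other arrays.

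The 6 collagen IV genes fall into 3 divergent pairs. Col4a1 and Col4a2, whose chains form the collagen IV network found in nearly all basement membranes, rose in culture and fell with BIO. Col4a1 signals were 6428, 6708 and 6041 in fresh cells, 10989.6, 9831 and 9910.5 in dispersed cells in DMSO and 8771, 8646 and 9800.4 in aggregates in DMSO. In BIO they were 5129, 5417 and 5171 in dispersed cells, 5237, 5494 and 6047 in aggregates and 5687, 6355 and 6014 after 48 h. The DMSO arrays lay above all fresh arrays, and the BIO arrays of dispersed cells lay below them while those of aggregates overlapped them. Col4a1 was 1.6-fold higher than fresh in dispersed cells in DMSO (adjusted p = 9.85e-06) and 1.42-fold higher in aggregates (adjusted p = 0.000226). BIO lowered it 1.95-fold in dispersed cells (-0.97 ± 0.08, adjusted p = 2.26e-07) and 1.62-fold in aggregates (-0.70 ± 0.08, adjusted p = 9.34e-06). Col4a2, from the start 21 bases away, read 3418 to 4149 in fresh cells, 5413 to 6995 in DMSO and 2951 to 3857 in BIO at 24 h. Its change with BIO was -1.11 ± 0.11 in dispersed cells (adjusted p = 6.19e-07) and -0.79 ± 0.11 in aggregates (adjusted p = 2.74e-05).

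On chromosome X, Col4a6, a chain of epithelial and smooth muscle basement membranes, read 576, 495 and 503 in fresh cells, 26.3, 78.2 and 78.4 in dispersed cells in DMSO and 57.0, 73.6 and 98.1 in aggregates in DMSO. With BIO it stayed at 441, 346 and 399 in dispersed cells and 322, 253 and 212 in aggregates, between the fresh and DMSO arrays in both formats. It was 9.43-fold and 6.95-fold lower than fresh in DMSO in dispersed cells and aggregates (adjusted p = 5.99e-06 and 3.26e-05), and BIO raised it 7.09-fold (2.83 ± 0.39, adjusted p = 3.11e-05) and 3.44-fold (1.78 ± 0.39, adjusted p = 0.00203). The aggregate rise missed the threshold as the mean of both probe sets (0.90) and with β-actin as a covariate (0.47). Col4a5, whose chain is shared by the epithelial and glomerular networks, read 1724 to 1801 in fresh cells and 806 to 1040.2 in DMSO, a change of -1.06 ± 0.07 in dispersed cells (adjusted p = 1.4e-08) and -0.82 ± 0.07 in aggregates (adjusted p = 3.3e-07). BIO moved it by 0.28 ± 0.07 in dispersed cells (adjusted p = 0.00908) and by -0.19 ± 0.07 in aggregates (adjusted p = 0.0621). The difference between these effects was -0.47 ± 0.11 (adjusted p = 0.0325). It lost its call without dispersed DMSO replicate 1 (-0.46) or 3 (-0.44), dispersed BIO replicate 2 (-0.47) or 3 (-0.44), DMSO aggregate replicate 1 (-0.45) or 2 (-0.46), or BIO aggregate replicate 2 (-0.47) or 3 (-0.44), and the mean of its probe sets gave -0.19.

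Col4a3 and Col4a4 encode the chains that replace the embryonic network in the mature glomerular basement membrane, and both were dim. Col4a4 read 50.7, 74.0 and 65.2 in fresh cells, 174, 216 and 159.5 in dispersed cells in DMSO and 195, 103 and 57.3 in aggregates in DMSO. In BIO it read 46.4, 39.8 and 48.4 in dispersed cells and 12.1, 33.7 and 49.2 in aggregates, below all DMSO arrays. It was 4.0-fold lower with BIO in dispersed cells (-2.00 ± 0.42, adjusted p = 0.00163) and at least 2.35-fold lower in aggregates (-1.90 ± 0.42, adjusted p = 0.00234). With β-actin as a covariate the aggregate change was 0.12, with the sign turned. Col4a3 was at least 1.51-fold lower with BIO in aggregates (-1.54 ± 0.49, adjusted p = 0.0247), a call lost without DMSO aggregate replicate 1 (-1.50) or 2 (-1.46) or BIO aggregate replicate 1 (-1.45) or 3 (-1.14).

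Of 5 collagen VI chains 3 were above background, and 2 fell with BIO in each format and none rose. The share called, 40%, is near the 30% and 28.7% of all genes called in either direction. It is above the 12.5% and 13.4% of all genes lowered, in a class of 5 genes. Col6a2 read 1118, 1133 and 1259.9 in fresh cells, 605 to 737 in dispersed cells in DMSO, 794 to 836 in aggregates in DMSO and 268 to 312 in BIO at 24 h. BIO lowered it 2.82-fold in aggregates (-1.49 ± 0.13, adjusted p = 2.81e-07) and 2.41-fold in dispersed cells (-1.27 ± 0.13, adjusted p = 1.55e-06). Col6a1, its neighbour on chromosome 10, was named after its values were seen and changed by -1.40 ± 0.16 in aggregates (adjusted p = 6.31e-06) and -1.47 ± 0.16 in dispersed cells (adjusted p = 3.71e-06).

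Of the short-chain network collagens, Col8a1, a chain of the hexagonal networks under endothelium and of smooth muscle matrix, was below background on all 3 fresh arrays at 10.8, 15.8 and 38.0. It rose to 337, 286 and 349.6 in dispersed cells and 208, 249 and 221 in aggregates in DMSO, at least 7.56-fold and at least 5.27-fold above fresh (adjusted p = 1.06e-05 and 5.04e-05). With BIO it read 87.9, 74.7 and 31.5 in dispersed cells and 21.1, 9.22 and 45.6 in aggregates. BIO thus lowered it 5.37-fold in dispersed cells (-2.43 ± 0.51, adjusted p = 0.00159) and at least 5.13-fold in aggregates (-3.37 ± 0.51, adjusted p = 8.28e-05). With β-actin as a covariate the aggregate change was -1.60 and missed the threshold. The other 2 probe sets of Col8a1 had group means below background in every group.

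Col12a1, 1 of 9 FACIT genes, had the largest change with BIO in aggregates of the 42 members. Its chain coats fibrils in tissues under tension. Signals were 364, 279.5 and 264 in fresh cells, 4236, 3967 and 3393 in dispersed cells in DMSO and 3648, 3808 and 4064 in aggregates in DMSO. They were 431, 397 and 398 in dispersed cells and 175, 161 and 193 in aggregates in BIO, so that the DMSO arrays stood apart from all others. Col12a1 rose 12.8-fold over fresh in dispersed cells (adjusted p = 5e-09) and 12.8-fold in aggregates (adjusted p = 6.31e-09), and was 21.7-fold lower with BIO in aggregates (-4.44 ± 0.24, adjusted p = 7.92e-10) and 9.41-fold lower in dispersed cells (-3.23 ± 0.24, adjusted p = 2.68e-08). These values come from 1 of its 4 probe sets. The other 3 fell by 0.46, 0.10 and 0.19 with BIO in aggregates, and none passed the threshold.

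Col9a1 and Col14a1, FACIT chains best known from cartilage and from fibril assembly in dense connective tissue, fell in all cultures at 24 h. Col9a1 read 1799 to 1987 in fresh cells, 702 to 1025 in dispersed cells in DMSO, 468 to 590.5 in aggregates in DMSO and 279 to 437 in BIO. Col14a1 read 629.9 to 766 in fresh cells and 142 to 251 in the 4 groups cultured for 24 h, and BIO changed it by -0.05 ± 0.17 in aggregates (adjusted p = 0.875) and 0.11 ± 0.17 in dispersed cells (adjusted p = 0.692). Col20a1, a little-studied FACIT chain, rose with BIO in aggregates, reading 55.7 to 91.0 in DMSO and 138 to 170.3 in BIO (1.15 ± 0.20, adjusted p = 0.000263), but the mean of its 4 probe sets gave 0.34 and missed the threshold.

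Of the 6 members that BIO raised in both formats 1, Col24a1, was a fibrillar chain. Col18a1, a heparan sulphate collagen of basement membranes whose C-terminal fragment is endostatin, read 2039.9, 1974 and 2105 in fresh cells, 750.2, 695 and 762 in dispersed cells in DMSO and 891, 1056 and 1208 in aggregates in DMSO. With BIO it read 5356, 5123 and 5052 in dispersed cells and 5150.5, 5449 and 4362 in aggregates, above every fresh array. BIO raised it 7.03-fold in dispersed cells (2.81 ± 0.11, adjusted p = 3.76e-11) and 4.75-fold in aggregates (2.25 ± 0.11, adjusted p = 4.9e-10). Col26a1, a secreted protein with an EMI domain and short collagen stretches, read 1069, 1127 and 1202 in fresh cells, 88.3, 109 and 105 in dispersed cells in DMSO and 94.6, 127 and 149 in aggregates in DMSO. BIO arrays held 1397, 1222 and 1261 in dispersed cells and 1350.3, 1473 and 956 in aggregates, which overlapped the fresh arrays only in aggregates. The rise over DMSO was 12.8-fold in dispersed cells (3.67 ± 0.20, adjusted p = 7.93e-10) and 10.1-fold in aggregates (3.34 ± 0.20, adjusted p = 3.03e-09).

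The transmembrane collagens are held in the plasma membrane and shed their ectodomains. Col13a1, an adhesion-site member, read 807, 733 and 626 in fresh cells, 97.6, 115 and 128 in dispersed cells in DMSO and 208, 162 and 126 in aggregates in DMSO, and 448, 413 and 444 and 489, 524 and 377 in the same formats in BIO. It fell 6.33-fold and 4.41-fold from fresh in DMSO (adjusted p = 1.1e-08 and 1.69e-07), and BIO raised it 3.83-fold in dispersed cells (1.94 ± 0.18, adjusted p = 5.07e-07) and 2.82-fold in aggregates (1.50 ± 0.18, adjusted p = 9.83e-06). Col25a1, a neuronal and muscle member, fell with BIO instead. It read 261 to 349 in DMSO and 73.0 to 99.5 in BIO in dispersed cells (-1.84 ± 0.25, adjusted p = 2.49e-05) and 209.9 to 257 in DMSO and 64.8 to 131 in BIO in aggregates (-1.20 ± 0.25, adjusted p = 0.00131), the latter not past the threshold with β-actin as a covariate. Col23a1 read 30.9, 37.0 and 12.0 in dispersed cells in DMSO, all below background, and 67.9, 64.4 and 69.0 in BIO, a rise of at least 1.59-fold (adjusted p = 0.0065), although the mean of its probe sets gave 0.64 and no call. In aggregates it read 78.2 to 121 in DMSO and 94.7 to 127 in BIO, and the difference of 0.27 ± 0.36 was not past the threshold (adjusted p = 0.649).

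Set against fresh cells directly, cells in BIO for 24 h had lower collagen expression in most called members. In aggregates 3 were higher and 19 lower (52.4%, with 33.7% of all genes called, 21.9% higher and 11.8% lower), and in dispersed cells 2 were higher and 18 lower (47.6% against 25.9% of all genes, 12.7% higher and 13.3% lower). The arrays of the groups did not overlap for any of these except Col8a1 in dispersed cells, at 31.5 to 87.9 against 10.8 to 38.0 (adjusted p = 0.0274), a call lost without fresh replicate 1 (1.24) or 2 (1.49) or dispersed BIO replicate 1 (1.33) or 2 (1.45). Here too overlap was not counted over all called genes. The largest falls were of Col1a2, 10.3-fold in aggregates (adjusted p = 6.69e-09) and 12.0-fold in dispersed cells (adjusted p = 2.4e-09). Col18a1 was higher than fresh in both formats, 2.43-fold and 2.54-fold (adjusted p = 5.02e-07 and 2.45e-07). Col12a1 was lower than fresh in aggregates in BIO (-0.77 ± 0.24, adjusted p = 0.02) on the probe set used, whereas a second probe set was higher (1.09, adjusted p = 0.0143 over all 34945 probe sets with 1 symbol), and the call was lost without fresh replicate 1 (-0.62) or BIO aggregate replicate 2 (-0.70). The median of all genes was itself 0.18 in aggregates in BIO against fresh, and 0.04 under the deposited scaling. Without the 4 arrays that stood apart in β-actin, 14 members were called in place of 22.

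Aggregates were also set against dispersed cells in the same treatment, where the shares of members called were near those of all genes. In DMSO 2 were higher in aggregates than in dispersed cells (4.76%, where 2.62% of all genes were called, 1.84% higher and 0.786% lower). They were Col23a1, at 78.2 to 121 against 12.0 to 37.0 (1.91 ± 0.36, adjusted p = 0.0133), and Col18a1, at 891 to 1208 against 695 to 762 (0.51 ± 0.11, adjusted p = 0.0314). Without dispersed DMSO replicate 3 neither was called, at 1.44 for Col23a1 and 0.53 for Col18a1, and Col18a1 was also lost without replicate 1 (0.52) or 2 (0.46) of dispersed DMSO or replicate 2 (0.50) or 3 (0.40) of DMSO aggregates. In BIO 2 were higher and 4 lower (14.3%, where 17.2% of all genes were called, 12.6% higher and 4.65% lower, so the share is near that of all genes), but 0 and 6 under the deposited scaling and 4 and 2 under median centring. Without BIO aggregate replicate 1 or dispersed BIO replicate 2, 3 members were called, and without BIO aggregate replicate 2, 2 were called. Col12a1 differed most, at 175, 161 and 193 in aggregates against 431, 397 and 398 in dispersed cells (-1.21 ± 0.24, adjusted p = 0.00303), and the mean of its 4 probe sets gave 0.07. Col5a3 was higher in aggregates (0.60 ± 0.14, adjusted p = 0.00756), a call lost under the deposited scaling (0.36).

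The second day asked what happened to aggregates when BIO was replaced by DMSO. Against aggregates kept in BIO for 48 h, 12 members were higher and 5 lower after withdrawal (40.5%, where 20.4% of all genes were called, 9.29% higher and 11.1% lower). The median change of the 42 was 0.22, and of all genes -0.06. The 12 that rose included 10 of the 17 that BIO had lowered in aggregates on the first day (58.8% of those, and 83.3% of the 12), and the 5 that fell included 3 of the 6 that it had raised (50% of those, and 60% of the 5), in comparisons that share no arrays. Shares of this kind were not counted over all genes, so they too are not read as particular to collagens. One gene, Col25a1, was lower in both. No group of aggregates held in DMSO for 48 h was analysed here, so the effect of the second day and of withdrawal is read against BIO alone.

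Of the 11 fibrillar chains 5 were higher after withdrawal and none was lower (45.5% against 20.4% of all genes). Col3a1 read 4170.1, 3620.1 and 4409 after withdrawal against 532, 489 and 403 in BIO, 8.58-fold higher (3.10 ± 0.10, adjusted p = 5.65e-12). Col5a2 read 5025, 5168 and 3977 against 591, 689.7 and 442, 8.29-fold higher (adjusted p = 4.05e-10). Col1a2 read 2798, 2275 and 2745 against 713, 539 and 453, 4.64-fold higher (adjusted p = 6.44e-07). The withdrawal arrays of Col1a2 lay above all 6 DMSO arrays of the first day, while those of Col3a1 overlapped the dispersed ones and those of Col5a2 lay below. Col1a1 rose from 324, 479 and 247 to 1061, 1206 and 1266, a 3.48-fold difference (adjusted p = 1.8e-05). Col12a1 read 1034, 1245 and 516 against 205, 278 and 209.8 (1.93 ± 0.24, adjusted p = 1.61e-05), below all first-day DMSO arrays, and the mean of its probe sets gave 0.28 and no call. Of the basement membrane pair, Col4a1 read 9334, 8456 and 8148 against 5687, 6355 and 6014 (0.52 ± 0.08, adjusted p = 0.000266), and Col4a2 changed by 0.74 ± 0.11 (adjusted p = 8.18e-05).

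Lower after withdrawal were Col26a1, at 214, 305 and 380.4 against 2009, 2014 and 2116 (6.98-fold, adjusted p = 4.13e-08), and Col4a6, at 99.4, 56.8 and 76.5 against 145, 339 and 330.0 (3.32-fold, adjusted p = 0.00386). Col14a1 read 149.5, 164 and 229 after withdrawal against 822, 989 and 1186 with BIO kept, 5.53-fold lower (-2.47 ± 0.17, adjusted p = 3.04e-08). Col25a1 read 146, 225 and 179.6 against 396, 287 and 431 (-1.01 ± 0.25, adjusted p = 0.00688), a call lost when only the 6 arrays compared were fitted. Col18a1 fell less, from 4701, 4886 and 5099 to 3223, 2505 and 2935 (1.7-fold, adjusted p = 0.000114), and its withdrawal arrays lay above all fresh and all first-day DMSO arrays. Col13a1 did not pass the threshold, at 392 to 583 against 459 to 512 (-0.05 ± 0.18, adjusted p = 0.894). When only the 6 arrays of this comparison were fitted, 10 members were called in place of 17.

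**Figure D4:**
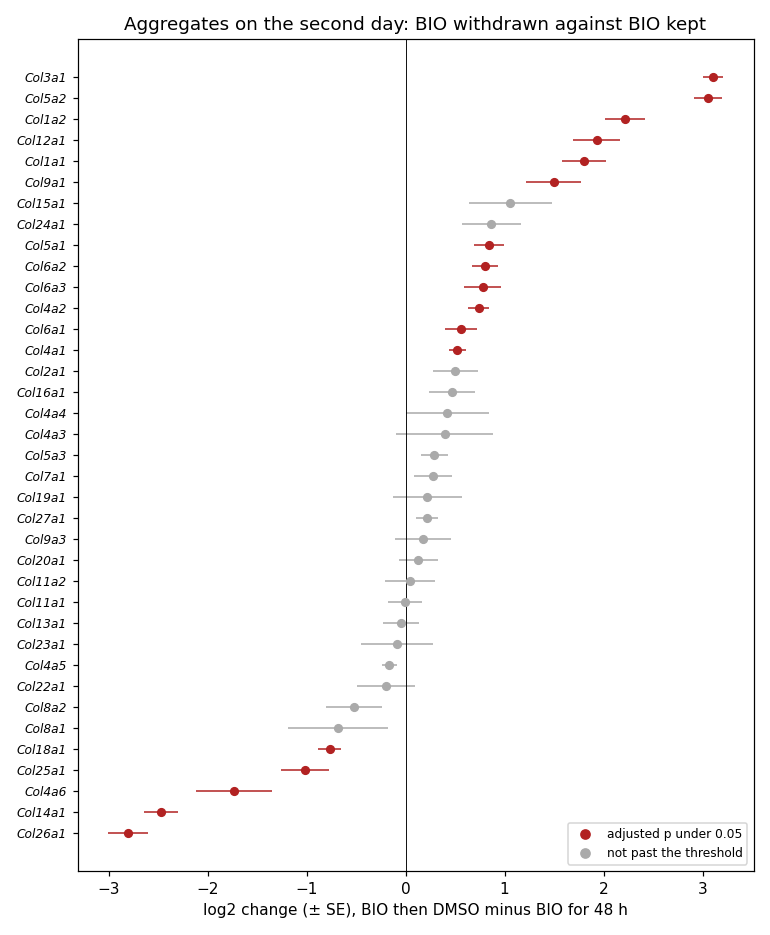
Log2 change (x axis, with standard error bars) of 37 collagen genes between aggregates after BIO then DMSO and aggregates kept in BIO for 48 h, sorted by change. Col3a1 and Col5a2 lie near 3 at one end and Col26a1 and Col14a1 below -2 at the other.

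A second day in BIO changed 6 members upward and 6 downward relative to 24 h in BIO (28.6%, where 20.8% of all genes were called, 8.05% higher and 12.8% lower). Col14a1 rose from 207, 176 and 142 to 822, 989 and 1186, 5.69-fold (2.51 ± 0.17, adjusted p = 6.44e-08), and its 48 h BIO arrays were above all 18 others. A second probe set of Col14a1 had group means of 62.7 at 24 h and 310.0 at 48 h in BIO. Col8a1, low at 24 h in BIO, read 396, 240.1 and 314 at 48 h, at least 7.07-fold higher (adjusted p = 4.65e-05), and 245, 221 and 133 after withdrawal. Col25a1 rose from 131, 64.8 and 111 to 396, 287 and 431, 3.7-fold (adjusted p = 3.83e-05). Col3a1 fell further, by 2.68-fold (-1.42 ± 0.10, adjusted p = 9.38e-08), and Col2a1, the cartilage fibril chain, read 275 to 298 at 24 h and 68.8 to 172 at 48 h (-1.36 ± 0.23, adjusted p = 0.000412). With only the 6 arrays compared 5 members were called, with the Gapdh ratio as a covariate 6 and with β-actin 7, in place of 12.

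Col22a1, a FACIT chain of tissue junctions such as that between muscle and tendon, gave different results by probe set, and is named after its values were seen. The probe set that stood for it had the highest mean log2 signal over all arrays and passed in no comparison, with group means from 74.1 to 100.4. The 2 others were dim in most groups and bright after 48 h in BIO. The one of these whose name ends in s_at had group means of 42.8 in fresh cells, 27.3 and 27.5 in DMSO, 144.8 and 79.9 in BIO at 24 h in dispersed cells and aggregates, 23.9 after withdrawal and 1384 (1182 to 1615) after 48 h in BIO. The other one had 56.1 after withdrawal and 454.9 (411 to 536) after 48 h in BIO. In a fit of all 34945 probe sets with 1 symbol the withdrawal changes were -5.88 ± 0.67 (adjusted p = 1.15e-05) and -3.02 ± 0.25 (adjusted p = 3.01e-07). Over all comparisons, called members had 193 results from other probe sets, of which 69 were called in the same direction and 2 in the opposite direction, of Col5a3 in DMSO aggregates and Col12a1 in BIO aggregates against fresh.

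**Figure D5:**
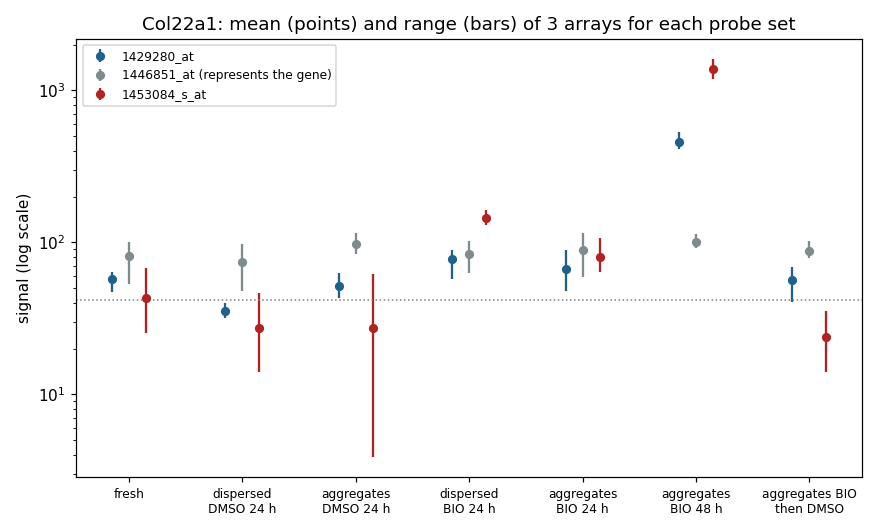
Signal (log axis) of the 3 probe sets of Col22a1 in 7 groups, as the mean (points) and range (bars) of 3 arrays, with the background dotted. The probe set ending in s_at reaches a mean of 1384 and a second one 454.9 after 48 h in BIO, and the one used here stays between 74.1 and 100.4.

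Of 30 listed enzymes and chaperones, which hydroxylate, fold, cleave and crosslink the chains, 26 were measured. In aggregates in DMSO 14 were higher than fresh and none lower (53.8%, where 32.9% of all genes were called), and in dispersed cells 13 were higher and 2 lower (57.7% against 33.2%). BIO lowered 15 and raised 1 in aggregates (61.5% against 30% of all genes), and lowered 14 and raised 2 in dispersed cells (61.5% against 28.7%). Their medians with BIO were -0.47 and -0.21, against 0.09 and 0.02 for all genes. Lox and Loxl1 encode lysyl oxidases, which crosslink collagen and elastin outside the cell. BIO lowered Loxl1 21.7-fold in aggregates (-4.44 ± 0.21, adjusted p = 2.17e-10) and 17.2-fold in dispersed cells (-4.11 ± 0.21, adjusted p = 3.77e-10). Lox fell 18.1-fold in aggregates (adjusted p = 7.61e-10) and 21.4-fold in dispersed cells (adjusted p = 2.96e-10). Adamts3, a procollagen N-propeptidase, changed by -3.17 ± 0.20 in dispersed cells (adjusted p = 5.34e-09).

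The 2 enhancers of procollagen C-proteinase took opposite directions. Pcolce fell 11.7-fold with BIO in aggregates (-3.55 ± 0.16, adjusted p = 1.61e-10), and its change differed from that in dispersed cells (-2.54 ± 0.16) by -1.01 ± 0.23 (adjusted p = 0.0381), a call lost without any 1 of 11 of the 12 arrays (-1.06 to -0.87). Pcolce2 rose at least 16.3-fold in aggregates (6.39 ± 0.53, adjusted p = 1.24e-07) and at least 10.8-fold in dispersed cells (5.83 ± 0.53, adjusted p = 3.09e-07). After withdrawal 5 of the 26 were higher and 5 lower than with BIO kept (38.5% against 20.4% of all genes), P3h2, a prolyl 3-hydroxylase, 5.85-fold higher (adjusted p = 1.85e-08) and Pcolce2 16.6-fold lower (adjusted p = 2.87e-05). Between 24 h and 48 h in BIO 11 rose and none fell (42.3% against 20.8% of all genes), led by Pcolce (2.73 ± 0.16, adjusted p = 2.88e-08), a count that was 3 with β-actin as a covariate or with only the 6 arrays compared.

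Of 11 listed collagen receptors 10 were measured. BIO lowered 4 and raised none in each format, the same 4 genes, and with β-actin as a covariate 2 of them were called in aggregates. The share called, 40%, is near that of all genes in either direction (30% in aggregates and 28.7% in dispersed cells). It is above the share of all genes lowered (12.5% and 13.4%), in a list of 10 genes. Itga1, a collagen-binding integrin subunit, was 3.95-fold lower in aggregates (-1.98 ± 0.28, adjusted p = 4.16e-05) and 6.34-fold lower in dispersed cells (-2.66 ± 0.28, adjusted p = 1.64e-06). Its partner Itgb1 was 2.93-fold lower in aggregates (adjusted p = 2.33e-07). The discoidin domain kinases Ddr1 and Ddr2 changed by -0.73 ± 0.13 and -0.54 ± 0.15 in aggregates (adjusted p = 0.000314 and 0.0124). The call of Ddr2 was lost without DMSO aggregate replicate 3 (-0.45) or BIO aggregate replicate 1 (-0.44), and in dispersed cells without DMSO replicate 1 (-0.37) or 3 (-0.41) or BIO replicate 2 (-0.42) or 3 (-0.35). After withdrawal 3 were higher than with BIO kept and none lower (30% against 20.4% of all genes), with Itga1 7.74-fold higher (adjusted p = 9.15e-07) and Ddr2 3.55-fold higher (adjusted p = 2.26e-07).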

How the data were processed

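The study's 21 arrays carried biotin-labelled RNA after 2 rounds of amplification, per the labels' protocols. The deposited values are linear probe set intensities; the sources used here do not give the software, background correction or scaling that the authors used. Of 45101 probe sets 34945 were named with 1 symbol, 932 with several and 9160 with none, and 64 were controls. Values were taken as log2(signal + 1), quantile normalized, reduced to the probe set with the highest mean log2 value per gene, and fitted by group with limma (version 3.58.1, under R 4.3.3), which had 14 residual and 1.625 prior degrees of freedom. Precision is limited by 3 arrays per group, and p-values measure the spread between these samples. In simulated data for BIO in aggregates, with 18193 genes, 30% of changes of 0.5, 88% of 1 or -1 and 100% of 2 (log2) were recovered, with 4 unchanged genes among 157 calls. Changes were planted in 50 genes per size, all brighter than the median gene, whereas in the data 30% of all genes were called. These rates therefore do not give the recovery of dim members or of the real comparison.

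Col1a1, Col1a2, Col3a1 and Col4a1 were to be given in full, with other members named for being, in any comparison, among the 5 members that rose most or the 5 that fell most without overlap of the arrays, or for sharing a start region with such a member. Genes of the enzyme and receptor lists were named for ranking among the 4 largest passing changes. Members and lists were chosen with earlier results of these data known. The most that any pair of arrays shared was 0.288% identical values. Same-numbered samples of different groups had deviations that correlated at -0.39 to 0.26 (median -0.02, 63 pairs of arrays), so the replicate numbers were not taken to pair samples.

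Alternatives were the deposited scaling, median centring, another pseudocount (16), a filter on dim genes, the mean of all probe sets, the replicate number as a block, a variance trend, β-actin or the Gapdh ratio as a covariate, only the arrays compared, and leaving out each array. Leaving out the 4 arrays apart in β-actin, and fitting all probe sets, were chosen after seeing the data. Sequences are RefSeq's.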

Additional observations from a re-analysis of the deposited data

Results flagged for a closer look

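The BIO effect on Col4a5 differed between formats by -0.47 ± 0.11 (SE, log2, aggregates minus dispersed cells, limma adjusted p = 0.0325). Its signals were 835, 900.2 and 806 in dispersed cells in DMSO and 967, 1036 and 1084 in BIO, and 1040.2, 1019 and 942 in aggregates in DMSO and 922, 873 and 829.9 in BIO, so all 3 BIO arrays were above DMSO in dispersed cells and below it in aggregates. The change of Col4a5 in aggregates alone was not past the threshold. Its difference between formats lost its call without any of several single arrays and under median centring, and was smaller as the mean of its probe sets. Pcolce fell with BIO in both formats, by 3.55 in aggregates and 2.54 in dispersed cells on the log2 scale. The difference for Pcolce was -1.01 (limma adjusted p = 0.0381). That call was lost when most of the arrays compared were left out singly.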

How the results depend on the processing

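Of 173 called results for single members, 104 kept their direction and call under every alternative run and 8 reversed in some alternative. Leaving out 1 array at a time, counted once for each result and each array left out, kept 924 calls and lost 120. Of the 173 results, the replicate number as a block kept 167 and lost 6, and left 1 of the 2 calls between formats in DMSO. With β-actin as a covariate the number of members called was 15 for BIO in aggregates, 1 for the formats in BIO and 7 for the second day in BIO, and Col4a4 reversed, to 0.12 with BIO in aggregates and 0.81 for aggregates in BIO against fresh cells. With the Gapdh ratio the counts were 2 for the difference of the BIO effects, 1 for the formats in DMSO and 6 for the second day. With only the arrays compared they were 0 for the formats in DMSO, 10 for withdrawal and 5 for the second day. Without the 4 arrays apart in β-actin, 14 were called for BIO aggregates against fresh cells. The formats in DMSO gave 1 under the deposited scaling, 5 under median centring and 0 with the mean of all probe sets, which gave 2 for the formats in BIO. The difference of the BIO effects gave 0 under median centring and 3 with a variance trend. The mean of all probe sets also reversed Col20a1 with BIO in dispersed cells (-0.0448), Col5a3 in DMSO aggregates (-0.49) and dispersed cells (-0.15), Col12a1 in BIO aggregates against fresh (0.39) and between formats in BIO (0.0720), and Col4a5 between formats in BIO (0.0012). The cause was not tested.

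Leaving out 1 array at a time gave 19 to 23 members for BIO in aggregates, 23 to 25 in dispersed cells, 0 to 1 for the difference of these effects, 17 to 22 for aggregates and 23 to 24 for dispersed cells in DMSO against fresh, 16 to 19 for aggregates and for dispersed cells in BIO against fresh, 0 to 2 for the formats in DMSO and 2 to 7 in BIO, 16 to 19 for withdrawal and 12 to 15 for the second day. Genes near background have only bounds. Members with probe sets that differ include Col12a1, Col22a1, Col20a1, Col5a3, Col8a1, Col4a5, Col4a6 and Col23a1. Of 193 results from other probe sets of called members, 69 were called in the same direction.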

Other observations

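Members not described above also had calls, and these are named after their values were seen. Col15a1, a basement membrane relative of Col18a1, changed with BIO in aggregates by -1.15 ± 0.42 (SE, limma adjusted p = 0.0488) on the log2 scale, opposite to Col18a1, and in dispersed cells by -0.16 ± 0.42 (adjusted p = 0.831). The aggregate call was lost without BIO aggregate replicate 3 (-0.69, adjusted p = 0.24) or 2 (-1.33) and without DMSO aggregate replicate 1 (-1.11), 2 (-1.30) or 3 (-1.04), and without the 4 arrays apart in β-actin (-0.57). Col8a2, the partner chain of Col8a1, was lower in DMSO aggregates than in fresh cells (-1.26 ± 0.28, adjusted p = 0.00245), where Col8a1 was higher. Col7a1, the chain of anchoring fibrils, changed by -0.60 ± 0.20 with BIO in aggregates (adjusted p = 0.0287), a call lost without DMSO aggregate replicate 1 (-0.48) or BIO aggregate replicate 2 (-0.63) or 3 (-0.52). Col6a3, which joins Col6a1 and Col6a2 in collagen VI, was higher after withdrawal than with BIO kept (0.78 ± 0.19, adjusted p = 0.00688), a call lost when only the 6 arrays compared were fitted (adjusted p = 0.157).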
